A study of Mus musculus with 14 samples.

Results

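The expression of 10 genes of the Wnt signalling system was examined across 14 libraries of mouse liver sinusoidal endothelial cells (LSECs), the fenestrated endothelium that lines the hepatic sinusoids. They are 10 of the 23930 targets on the amplicon panel, and each of them was read by 1 target, found by matching the panel's RefSeq identifiers to mouse gene symbols. The genes are Wnt2 (NM_023653.5) and Wnt9b (NM_011719.4), Rspo3 (NM_028351.3), Fzd4 (NM_008055.4) and Fzd6 (NM_001162494.1), Lrp5 (NM_008513.3) and Lrp6 (NM_008514.4), Dkk3 (NM_015814.2), Axin2 (NM_015732.4) and Kit (NM_001122733.1).

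All libraries came from female wild-type C57BL/6J mice, and the labels name no transgene and no treatment in either group. The cells had been sorted from the liver as CD45-dim, STAB2-high and CD146-high, so that both groups share the same gate, and RNA was read with an amplicon-based mouse transcriptome panel. The aged group held 7 libraries from mice of 10 to 11 months and the young group 7 libraries from mice of 8 to 10 weeks. Experiment 1 contributed 3 libraries per age and experiment 2 contributed 4. Libraries are named below by age, experiment and replicate, so that aged 1.3 is the library with number 3 of the aged group in experiment 1. An age of 10 to 11 months is middle age for a mouse. Whether each library stands for a single mouse is not given in the sources used here, so that p-values measure the spread between these libraries, which may be partly technical.

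In the liver, Wnt ligands and R-spondin 3 made by endothelial cells around the central vein keep neighbouring hepatocytes in the pericentral state. A Wnt ligand binds a Frizzled receptor together with Lrp5 or Lrp6, which stops the destruction complex of Axin, Apc and Gsk3 from degrading beta-catenin. R-spondins act one step earlier, by removing the ubiquitin ligases Znrf3 and Rnf43 that would clear Frizzled from the surface. Axin2 is both a brake within the pathway and its most widely used transcriptional readout, and Kit, a receptor tyrosine kinase, marks LSECs on the pericentral side of the sinusoid.

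Promoter sequences, from 250 bases before to 50 bases after the transcription start, were found in RefSeq (GRCm38.p6) for 5 of the 10 genes, namely Wnt2, Wnt9b, Fzd4, Axin2 and Kit. Those of Wnt2, the one Wnt ligand among the 10 genes that had enough reads to test, and of Axin2, the pathway readout, are shown. Neither gene differed between the ages by the test described below, and no promoter was found for Dkk3, which did. Capitals mark the core of the ETS factor motif, GGAA or its reverse complement TTCC. ETS is the factor family named in the title of the series. Wnt2 lies on the minus strand with its promoter at chr6:18030396-18030695, and Axin2 on the plus strand with its promoter at chr11:108920099-108920398. Both are written 5′ to 3′ in the direction of transcription.
Wnt2: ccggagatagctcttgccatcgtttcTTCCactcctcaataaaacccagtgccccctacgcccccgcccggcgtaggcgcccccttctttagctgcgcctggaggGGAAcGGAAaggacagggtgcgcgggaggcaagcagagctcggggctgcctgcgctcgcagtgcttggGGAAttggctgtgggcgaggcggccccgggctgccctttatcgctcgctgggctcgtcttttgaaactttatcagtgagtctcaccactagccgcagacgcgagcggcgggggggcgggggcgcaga
Axin2: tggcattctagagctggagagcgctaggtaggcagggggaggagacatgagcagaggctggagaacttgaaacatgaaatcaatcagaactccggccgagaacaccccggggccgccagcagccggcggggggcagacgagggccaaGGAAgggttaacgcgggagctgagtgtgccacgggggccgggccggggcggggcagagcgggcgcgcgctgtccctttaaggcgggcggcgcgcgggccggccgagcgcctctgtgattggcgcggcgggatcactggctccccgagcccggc
The Wnt2 window held 4 ETS cores and the Axin2 window 1, against a median of 3 over 32851 RefSeq promoters of the same length, of which 96.0% held at least 1 and 46.3% at least 4. The core recognised by TCF and LEF factors, the nuclear partners of beta-catenin, was searched as CTTTGA on both strands. It was in none of the promoters found for these 5 genes and in 16.0% of all promoters. The match describes these letters in this window and says nothing of binding.

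Levels are read counts scaled to library size with TMM factors and are given as CPM. They can be compared between libraries for 1 gene but not between genes, because each target is a single amplicon of its own efficiency. Libraries held 6710403 to 13977361 reads on gene targets. LSEC identity genes such as Stab2 and Lyve1 were read in every library, with a summed level of the 12 listed genes of 18603 to 34203 CPM. Among the libraries, 2 stood apart in ways that touch the genes described here. Aged 1.3 had the highest hepatocyte marker sum, at 7188 CPM against 425 to 2191 CPM in the others, the highest T and NK cell sum, at 496 CPM against 13.7 to 138 CPM, and the lowest LSEC identity sum. Young 2.4 had the highest level of Vwf, a large-vessel endothelial gene, at 328 CPM against 3.63 to 59.99 CPM in the others. The summed level of the 13 large-vessel genes was 2241 CPM in young 2.4 and was highest in aged 2.2, at 2406 CPM. In aged 2.2, however, 11 of the 13 lay under the mean of the other libraries of experiment 2, with a median log2 difference of -0.56. In young 2.4, 11 of the 13 lay above that mean, with a median of 0.83. Among pairs of the same age and experiment, aged 1.1 and aged 1.2 were the most alike. They differed by more than sampling noise and were counted as separate samples. Sensory receptors of smell, pheromones and taste, which LSECs are not known to use, were covered by 1336 targets and took 0.148% to 3.21% of the reads on genes.

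Of the 9 genes with enough reads to be tested, 1 differed between aged and young libraries, which was Dkk3, higher in aged. The test was edgeR's quasi-likelihood test over 14168 targets with experiment as a term, at a Benjamini-Hochberg adjusted p under 0.05, and it called 23 targets, or 0.162%, of which 11 were higher in aged, or 0.0776%, and 12 lower, or 0.0847%. Of the 9 genes, 4 had a positive and 5 a negative log2 fold change, with a median of -0.17 against 0.00 over all tested targets. By edgeR no gene of the 9 passed the adjusted threshold within either experiment or in the test of the difference of the age effect between experiments. Over all targets that test called 0 in experiment 1, 1 in experiment 2 (0.00706%) and 0 for the difference between experiments, and at an unadjusted p under 0.05 the counts were 914 (6.45%), 395 (2.79%) and 309 (2.18%).

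**Figure D1:**
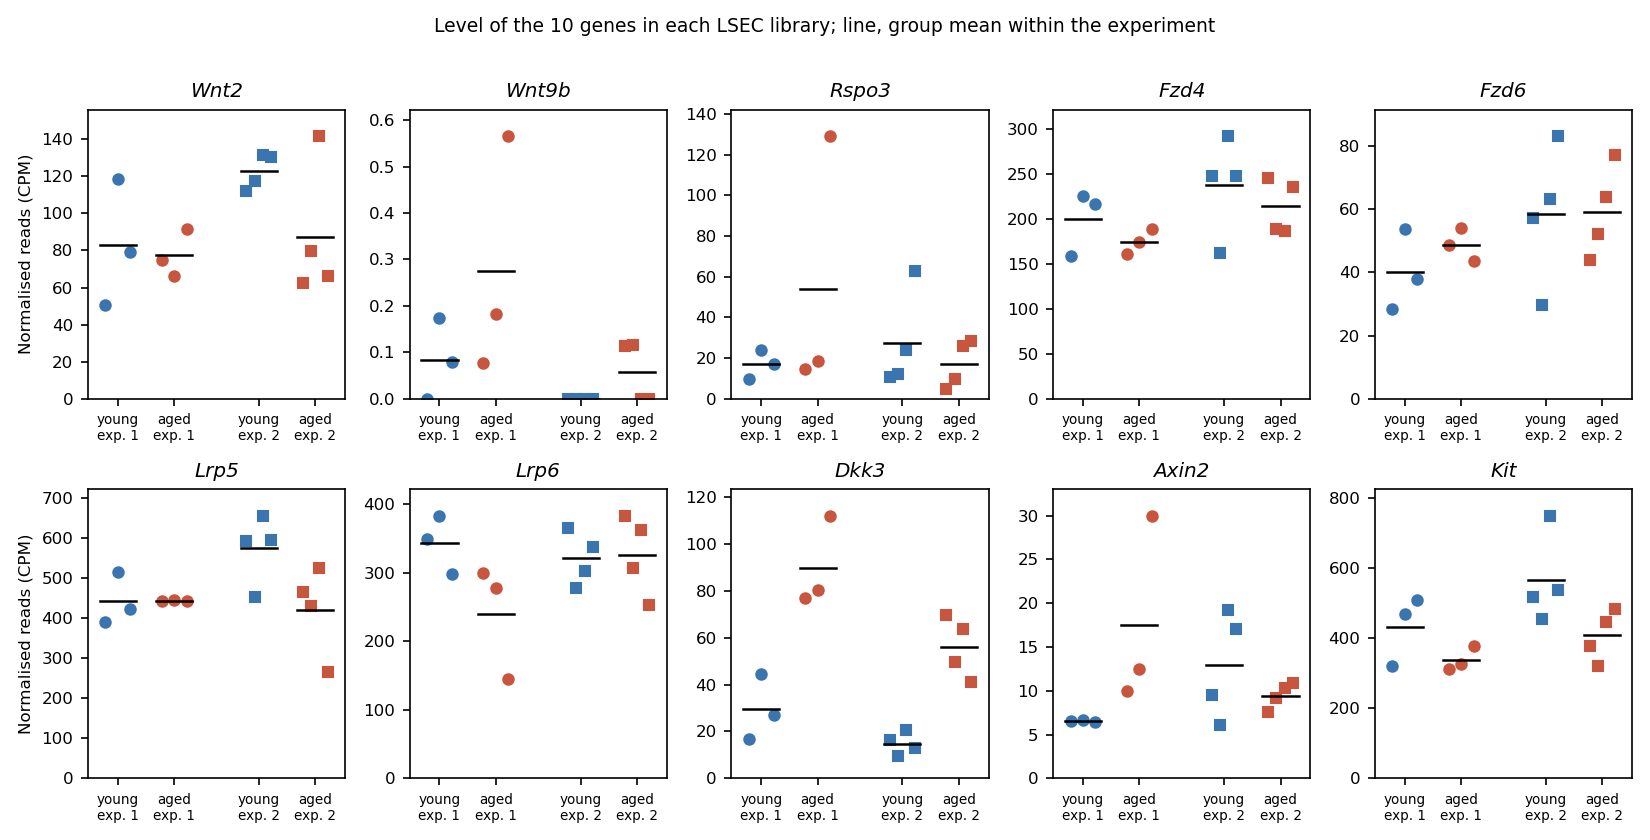
Level of each of the 10 genes in each library (y axis, CPM, linear and starting at 0; each panel has its own scale), by age and experiment on the x axis; points are libraries and lines are group means within the experiment. Dkk3 is higher in every aged library than in every young library of the same experiment, while single libraries hold the highest Rspo3 and Axin2 levels.

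Dkk3, a secreted member of the Dickkopf family that differs in sequence and activity from the classical Wnt inhibitor Dkk1, was higher in aged libraries. In experiment 1 the aged libraries were at 77.1, 80.6 and 112 CPM and the young libraries at 16.8, 44.4 and 27.2 CPM. In experiment 2 the aged libraries were at 69.8, 49.6, 63.8 and 41.0 CPM and the young libraries at 16.3, 9.54, 20.5 and 12.8 CPM. Every aged library was above every young library of its own experiment, which held for 38 of the 14168 targets in this direction (0.268%), and across experiments young 1.2 lay above aged 2.4. The mean was 70.6 ± 23.2 CPM in the aged and 21.1 ± 11.7 CPM in the young libraries (SD, n = 7 each).

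The fitted difference of Dkk3 was a log2 fold change of 1.79 with a standard error of 0.23, a 3.45-fold higher level with a 95% interval of 2.45 to 4.86 (edgeR quasi-likelihood, adjusted p = 0.00714), and it was positive in 7 of 7 aged libraries against the young mean of the experiment. Dkk3 ranked 4 of 14168 by p-value and 12 of the 23 called targets by size of change. The two-sided exact permutation test within experiments gave p = 0.00143, the smallest that its 1400 arrangements allow. That value follows from the lack of overlap within both experiments and adds no separate evidence. The log2 fold change was 1.61 ± 0.35 in experiment 1 and 1.92 ± 0.31 in experiment 2 (SE). Within experiment 1 Dkk3 passed adjustment by DESeq2 (adjusted p = 0.00295). Within experiment 2 it passed by DESeq2 (adjusted p = 2.42e-06), and by edgeR without TMM scaling (0.0384) and with a term for the sensory receptor reads (0.00904). Under the other 28 alternatives in experiment 1 and the other 26 in experiment 2 it did not pass. The settings in which Dkk3 passed also called more targets over the whole panel in that experiment, as listed below. The difference between the experiments was 0.31 ± 0.46 with an unadjusted edgeR p of 0.511.

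Aged libraries also held more reads of immune cell markers, and these values stand beside Dkk3. The 12 Kupffer cell and macrophage markers summed to 37.6 to 296 CPM in the aged and 37.2 to 119 CPM in the young libraries. Of 8 such markers tested, 8 were higher in aged, 7 of them at an unadjusted p under 0.05 and 0 after adjustment over all targets by edgeR. The 6 B cell markers summed to 3.55 to 279 CPM in the aged and 2.18 to 68.2 CPM in the young libraries, with 5 of 5 tested higher at an unadjusted p under 0.05 and 0 after adjustment. Clec4f, a defining Kupffer cell gene, was above 0 in every library (1.06 to 64.0 CPM), as was Cd79b, a subunit of the B cell receptor (0.596 to 96.3 CPM).

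Aged 2.4 had macrophage and B cell sums of 37.6 and 3.55 CPM, both within the range of the young libraries, and Dkk3 at 41.0 CPM against 9.54 to 20.5 CPM in the young libraries of that experiment. Each of these values of aged 2.4 was the lowest among the aged libraries. Aged 1.3 had the highest macrophage sum of the aged libraries, 296 CPM, and their highest Dkk3 level, 112 CPM. In aged 2.2 the macrophage sum was 257 CPM and Dkk3 was at 49.6 CPM. With a term for the mean level of the Kupffer and B cell markers, Dkk3 kept a log2 fold change of 1.60 and its adjusted p rose to 0.145, so that it was no longer called. Fewer cells of a type and less RNA per cell cannot be told apart in such bulk libraries. The 18 markers of stellate cells, fibroblasts and mesothelium summed to 181 to 891 CPM in the aged and 209 to 566 CPM in the young libraries. Of 12 such markers tested, 8 had a positive and 4 a negative log2 fold change and 0 were called, with a median of -0.89 in experiment 1 and 0.77 in experiment 2. In aged 2.3 they summed to 891 CPM and 11 of the 12 lay above the mean of the other libraries of experiment 2, with a median log2 difference of 1.59. The part of these cells in the Dkk3 levels was not tested.

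The call of Dkk3 was also lost without the experiment term (log2 fold change 1.74, adjusted p = 0.0629 by edgeR) and without aged 1.3 and young 2.4 together (1.68, adjusted p = 0.0583). Leaving out any 1 of the 14 libraries kept it, at 1.69 to 1.96.

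**Figure D2:**
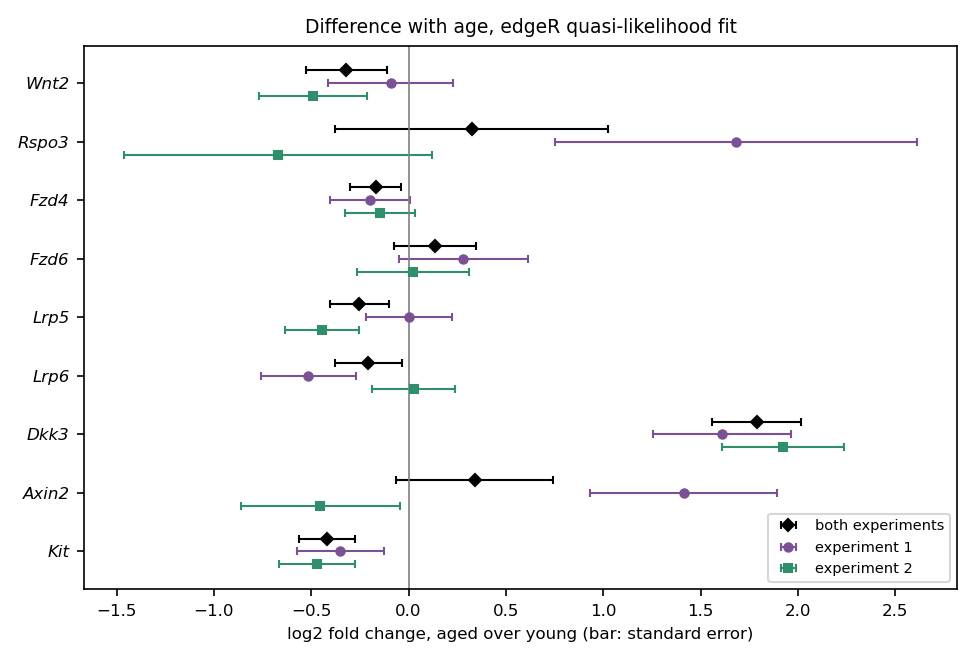
Log2 fold change of aged over young libraries (x axis; points, with bars for the standard error) for the 9 tested genes (y axis), from the fit over both experiments and within each experiment. Dkk3 lies between 1.61 and 1.92 in the 3 fits, and Rspo3 and Axin2 lie on opposite sides of 0 in experiments 1 and 2.

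Among the ligands, Wnt2, the main Wnt of LSECs, had a log2 fold change of -0.32 ± 0.21 (SE; edgeR adjusted p = 0.992) and did not pass the test. In experiment 1 Wnt2 was at 74.8, 66.2 and 91.9 CPM in the aged and 50.8, 119 and 79.0 CPM in the young libraries, and these values overlapped. In experiment 2 Wnt2 was at 62.4, 79.5, 142 and 66.1 CPM in the aged and 112, 118, 132 and 130 CPM in the young libraries, so that 3 aged libraries lay under all young ones and aged 2.3 lay above them all. The fitted change of Wnt2 was -0.09 in experiment 1 and -0.49 in experiment 2, or -0.48 over both experiments and -0.83 in experiment 2 without aged 2.3 (for the last, edgeR unadjusted p = 0.00436, which did not pass adjustment). The 95% interval over both experiments ran from 0.587-fold to 1.09-fold of the young level, and the exact permutation p was 0.174.

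Wnt9b, the other pericentral endothelial Wnt, had 15 reads over all 14 libraries and was not tested. Of these, 12 were in 5 aged libraries, with 7 in aged 1.3, and 3 in 2 young libraries. A floor of 3 reads per library corresponds to 0.215 to 0.447 CPM before TMM scaling. By reads, 1 library was above it, which was aged 1.3 with 7 reads, or 0.566 CPM after TMM scaling. The exact permutation test gave p = 0.0643 for Wnt9b, 0.0429 without TMM scaling or without aged 1.1, and 0.0357 without aged 2.3 or without aged 2.4. These values rest on libraries of which all but aged 1.3 were at or under the floor.

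The other 17 Wnt genes of the panel showed that few ligands were read. Of all 19 Wnt targets only Wnt2 and Wnt4 passed the filter on low counts. Wnt4, a ligand best known from kidney and female reproductive tract development, was at 3.40 to 45.1 CPM in the aged and 5.32 to 39.9 CPM in the young libraries (log2 fold change 0.09 ± 0.54 SE, edgeR adjusted p = 0.999). The most reads among the untested Wnt targets were those of Wnt5b, 95 in all, and Wnt2b had its highest level, 3.82 CPM, in young 2.4.

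Of the 6 tested genes of Wnt secretion, none was called, and the median log2 fold change was -0.10. The smallest p was that of Snx3, a sorting nexin of the retromer route that returns the Wnt carrier Wls from endosomes, at 509 CPM in the aged and 630 CPM in the young libraries (log2 fold change -0.31 ± 0.10 SE, edgeR adjusted p = 0.532). Vps35, the core retromer subunit, had -0.19 ± 0.12 and Porcn, the acyltransferase that lipidates Wnts, 0.31 ± 0.26 (log2 fold change, SE). DESeq2 gave Snx3 an adjusted p of 0.0325.

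Rspo3, the R-spondin of the central vein endothelium, did not differ by the test (log2 fold change 0.32 ± 0.70 SE, edgeR adjusted p = 0.999; exact permutation p = 0.910). In experiment 1 Rspo3 was at 14.4, 18.3 and 129 CPM in the aged and 9.53, 23.8 and 17.2 CPM in the young libraries. In experiment 2 it was at 4.88, 9.69, 26.2 and 28.3 CPM in the aged and 10.8, 12.1, 24.1 and 63.1 CPM in the young libraries. Aged 1.3 and young 2.4 were the highest libraries of their groups, and the others ran from 4.88 to 28.3 CPM with both ages intermixed.

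The sign of the Rspo3 fit depended on these libraries. Without aged 1.3 the log2 fold change over both experiments was -0.43 ± 0.50, and without young 2.4 it was 0.85 ± 0.61 (SE). Within experiment 1 it was 1.68 with aged 1.3 and -0.04 without it, and within experiment 2 it was -0.67 with young 2.4 and 0.14 without it. The difference of the age effect between experiments was -2.35 ± 1.22 (edgeR unadjusted p = 0.0760, which did not pass adjustment) and 0.18 without both libraries.

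Of the other R-spondin genes and receptors, Rspo1 and Rspo2, and the receptors Lgr5 and Lgr6, were not tested, each with 3 to 58 reads in all. Znrf3, a ligase that clears Frizzled, was at 0.310 to 7.27 CPM in the aged and 0 to 2.65 CPM in the young libraries (log2 fold change 1.42 ± 0.78 SE, edgeR adjusted p = 0.859), and its log2 fold change was 0.70 without aged 1.3. Its partner ligase Rnf43 was highest in aged 1.3, at 5.66 CPM, against 0.227 to 2.38 CPM in the other libraries. Lgr4, the widely expressed R-spondin receptor, had a log2 fold change of -0.06 ± 0.32 (SE). None of the 5 tested targets of this list was called.

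Neither Frizzled receptor among the 10 genes was called. Fzd4, the Frizzled of endothelium, which also binds Norrin, was at 161, 175, 189, 246, 189, 187 and 235 CPM in aged libraries and 159, 226, 217, 248, 162, 292 and 248 CPM in the young ones, experiment 1 first. The groups overlapped throughout, and the log2 fold change was -0.17 ± 0.13 (SE; 0.732-fold to 1.08-fold, edgeR adjusted p = 0.999). Fzd6, a Frizzled linked to planar cell polarity, ran from 43.6 to 77.2 CPM in the aged and 28.5 to 83.2 CPM in the young libraries, with a log2 fold change of 0.13 ± 0.21 (0.802-fold to 1.501-fold, edgeR adjusted p = 0.999).

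Of the 9 Frizzled targets on the panel 8 were tested and none was called, with a median log2 fold change of 0.11. The levels of Fzd1, Fzd2, Fzd8, Fzd9 and Fzd10 followed the share of sensory receptor reads from library to library. The coding sequence of each lies in 1 exon, as does that of Fzd7, whose r of 0.502 did not pass (permutation p = 0.0661, adjusted p = 0.110). Over 14 libraries the level of Fzd1 had r = 0.986 and rho = 0.938 with the log2 share of these reads (permutation p = 1e-05 for r, the smallest that 100000 draws can give, adjusted p = 5e-05 over 15 genes), r = 0.974 without the 2 libraries of the lowest share, aged 2.3 and aged 2.1, 0.978 in experiment 1 and 0.979 in experiment 2. Fzd9 had r = 0.966 (rho = 0.921, permutation p = 1e-05, adjusted p = 5e-05; r = 0.967 without the same 2 libraries, 0.850 in experiment 1 and 0.960 in experiment 2). For Fzd4, with 2 coding exons, r was -0.549 (permutation p = 0.0440, adjusted p = 0.0943; -0.725 in experiment 1 and -0.321 in experiment 2) and rho was -0.644 (adjusted permutation p = 0.0334). For Fzd6, with 6 coding exons, r was -0.474 (rho = -0.569, permutation p = 0.0876, adjusted p = 0.119; -0.476 and -0.276 in experiments 1 and 2). Dkk3 had r = 0.004 (rho = 0.059, permutation p = 0.989, adjusted p = 0.989; 0.087 and -0.461 in experiments 1 and 2), and with the log2 share as a term its log2 fold change was 1.78. The part of these reads in the Frizzled levels was not tested.

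**Figure D3:**
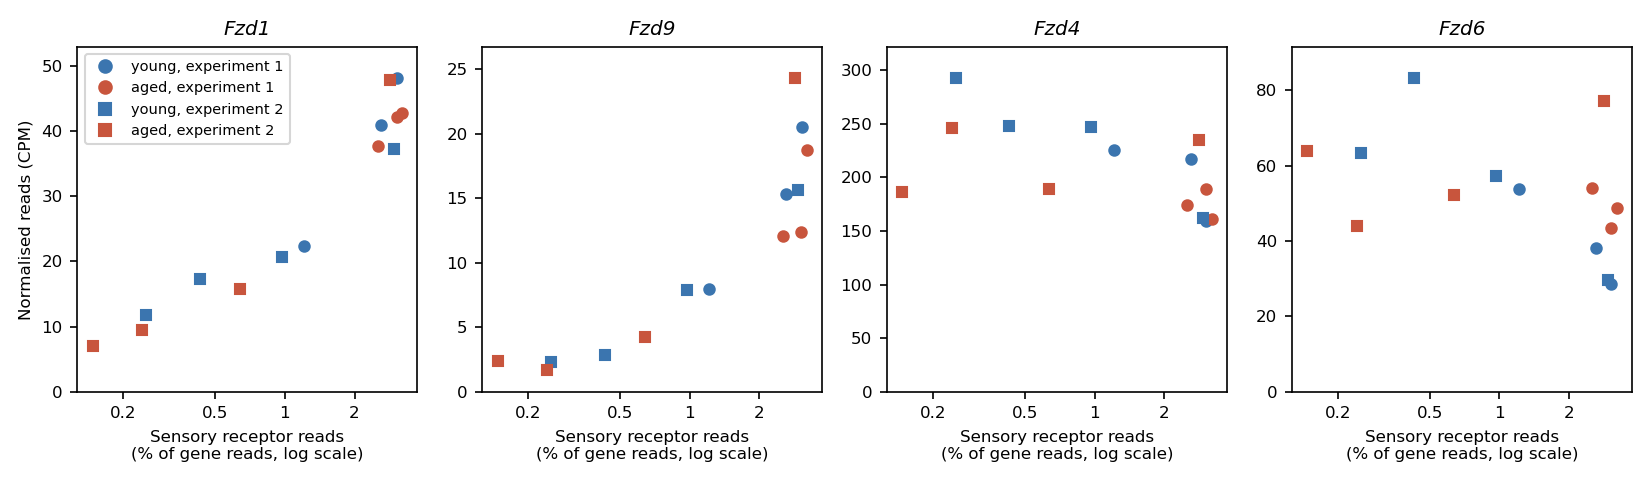
Level of 4 Frizzled genes (y axis, CPM, linear from 0) against the percentage of gene reads on sensory receptor targets (x axis, log scale) in the 14 libraries, coloured by age and shaped by experiment. Fzd1 and Fzd9 rise with the share, with r of 0.986 and 0.966, and Fzd4 and Fzd6 do not.

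The co-receptors Lrp5 and Lrp6, which carry the signal across the membrane beside Frizzled, were not called. Lrp5 was at 442, 444 and 443 CPM in the aged and 391, 516 and 421 CPM in the young libraries of experiment 1. In experiment 2 Lrp5 was at 465.8, 429, 523 and 266 CPM in the aged and 591, 453, 655 and 594 CPM in the young libraries, and the groups overlapped. The log2 fold change of Lrp5 was -0.25 ± 0.15 over both experiments (SE; 0.669-fold to 1.05-fold, edgeR adjusted p = 0.922), 0.00 in experiment 1 and -0.45 in experiment 2. Without aged 2.4, the lowest library, it was -0.15 over both experiments and -0.28 in experiment 2. Lrp5 was lower where the share of sensory receptor reads was higher (r = -0.600, permutation p = 0.0193, adjusted p = 0.0483; rho = -0.675; r = -0.703 without aged 2.3 and aged 2.1, -0.829 in experiment 1 and -0.609 in experiment 2).

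For Lrp6 the values were 299, 278 and 145 CPM in the aged and 350, 384 and 299 CPM in the young libraries of experiment 1, with aged 1.3 the lowest of all 14. In experiment 2 they were 384, 307, 363 and 253 CPM in the aged and 365, 278, 303 and 338 CPM in the young libraries. The log2 fold change was -0.21 ± 0.17 (SE; 0.673-fold to 1.12-fold, edgeR adjusted p = 0.999) and -0.08 without aged 1.3. The groups overlapped in both experiments.

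Among 7 tested co-receptors and receptor partners, 6 had a negative and 1 a positive log2 fold change, the median was -0.22 and none was called. Ptk7, a pseudokinase of planar polarity, had the lowest value, -1.70 ± 0.55 (SE, edgeR adjusted p = 0.523), at 0.543 to 2.62 CPM in the aged and 0.468 to 13.6 CPM in the young libraries, the highest being young 2.4. Reck, which with Adgra2 presents Wnt7 to Frizzled in brain endothelium, had -0.94 ± 0.52 (edgeR adjusted p = 0.872), or -0.37 without young 2.4 and -1.36 without aged 2.3. Adgra2 had -0.22 ± 0.13 (edgeR adjusted p = 0.901).

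Dkk3 was the only called gene among 3 tested secreted or membrane antagonists of the pathway. Dkk1, Dkk2 and Dkk4, the other Dickkopf genes, were not tested, with 18, 7 and 6 reads in all. The Dickkopf-like gene Dkkl1 was at 0.239 to 24.0 CPM in the aged and 1.36 to 15.5 CPM in the young libraries (log2 fold change 0.24 ± 0.74 SE, edgeR adjusted p = 0.999). Igfbp4, an insulin-like growth factor binding protein that can also bind Lrp6 and Frizzled, had a log2 fold change of -0.23 ± 0.18 (SE, edgeR adjusted p = 0.999).

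Axin2, the readout, was at 10.0, 12.5 and 30.0 CPM in the aged and 6.60, 6.64 and 6.47 CPM in the young libraries of experiment 1. In experiment 2 Axin2 was at 7.60, 9.11, 10.3 and 10.9 CPM in the aged and 9.47, 6.09, 19.2 and 17.1 CPM in the young libraries, and the groups overlapped. The log2 fold change was 0.34 ± 0.40 over both experiments (SE; 0.694-fold to 2.31-fold, edgeR adjusted p = 0.999; exact permutation p = 0.390), and 0.02 ± 0.31 without aged 1.3. It was 1.41 ± 0.48 in experiment 1 (edgeR adjusted p = 0.752), or 0.78 without aged 1.3, and -0.45 ± 0.41 in experiment 2. The difference of the age effect between experiments was -1.87 ± 0.63 with an unadjusted edgeR p of 0.0111, which did not pass adjustment. Without aged 1.3 it was -1.23, with an unadjusted edgeR p of 0.0513. With all libraries 309 of 14168 targets (2.18%) had an unadjusted p under 0.05 in that test.

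The other genes of the pathway were described by the lists they belong to. Of 22 tested genes of the beta-catenin relay none was called, with 7 positive and 15 negative log2 fold changes and a median of -0.06. The relay genes with the smallest p, which were the kinase Gsk3b (-0.22 ± 0.15), the scaffold Apc (-0.17 ± 0.15) and the transcription factor Tcf7 (2.01 ± 1.39), all had an edgeR adjusted p of 0.999 (log2 fold change, SE). Tcf7, which T cells also express, was at 46.7 CPM in aged 1.3, the library with the highest T and NK cell sum, and at 0.209 to 9.31 CPM in the others. Without aged 1.3 the log2 fold change of Tcf7 was 0.018.

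Of 13 tested Wnt target genes none was called, with 5 positive and 8 negative log2 fold changes and a median of -0.16. Ccnd1, the cell cycle gene for cyclin D1, was at 71.1 CPM in the aged and 94.3 CPM in the young libraries (log2 fold change -0.51 ± 0.18 SE, edgeR adjusted p = 0.607). Its change was -1.06 in experiment 1 and -0.10 in experiment 2. Bambi, a decoy receptor of the TGF-beta family, had -0.70 ± 0.27 (edgeR adjusted p = 0.666). Among 7 planar polarity genes Vangl1 had -0.45 ± 0.14 (edgeR adjusted p = 0.516), Prickle1 -0.32 ± 0.16 (adjusted p = 0.795) and Celsr2 0.60 ± 0.70 (adjusted p = 0.999), and none was called.

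Over the 9 pathway lists, 117 of 121 listed genes had a target and 70 were tested. Apart from the genes described first, 62 were tested and 0 were called by edgeR, with 23 positive and 39 negative log2 fold changes and a median of -0.06. At an unadjusted p under 0.05, 5 of the 62 were lower and 0 higher in aged libraries, against 3.34% lower and 3.43% higher of all targets.

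Among the 10 genes, Kit had the smallest edgeR p of those not called. Aged libraries were at 312, 326 and 378 CPM in experiment 1 and at 379, 322, 446 and 484 CPM in experiment 2. Young libraries were at 320, 468 and 508 CPM in experiment 1 and at 519, 455, 750 and 538 CPM in experiment 2. Every aged library was under the young mean of its experiment, and the groups overlapped in both experiments.

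The mean of Kit was 378 ± 65.9 CPM in the aged and 508 ± 129 CPM in the young libraries (SD, n = 7 each). The log2 fold change was -0.42 ± 0.14 (SE), or 0.605-fold to 0.924-fold, with an unadjusted edgeR p of 0.0107 and an adjusted p of 0.560. The unadjusted exact permutation p was 0.0186 over both experiments, and 0.05 without TMM scaling. At an unadjusted edgeR p under 0.05, 959 of 14168 targets (6.77%) were past the threshold.

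Mast cells and blood progenitors also carry Kit. The 9 other genes of the mast cell and progenitor list summed to 86.5 to 211 CPM in the aged libraries, with a median of 101 CPM, and to 66.5 to 149 CPM in the young libraries, with a median of 105 CPM. Among them the mast cell genes Tpsb2 and Cpa3 were above 0 in every library, and Gata2 and Cd34 are genes that endothelial cells also express. The sum was 116 CPM in young 2.3, the library with the highest Kit level at 750 CPM. Of 9 genes of the list tested, Kit among them, 4 had a positive and 5 a negative log2 fold change, and none was called. The part of these cells in the Kit levels was not tested.

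The other pericentral LSEC genes were set beside these values. Of 9 tested that are not among the 10 genes, 0 were called by edgeR, 1 was positive and 8 were negative, with a median log2 fold change of -0.24, which was 0.08 in experiment 1 and -0.54 in experiment 2. At an unadjusted p under 0.05, 1 of them was lower, namely Fabp4, a fatty acid carrier, with -0.62 ± 0.28 (SE, edgeR adjusted p = 0.708). Lhx6, a homeobox gene, had -0.74 ± 0.43 (adjusted p = 0.889), Thbd, the thrombin receptor thrombomodulin, -0.40 ± 0.29 (adjusted p = 0.999), and Cdh13, or T-cadherin, 0.11 ± 0.24 (adjusted p = 0.999).

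Periportal LSEC genes, such as Efnb2 and Dll4 of the arterial side, had 5 positive and 5 negative log2 fold changes among 10 tested, a median of -0.04 and 0 calls. In aged 1.3 all 10 lay under the mean of the other libraries of experiment 1, with a median log2 difference of -0.98. In the same library 6 of the 9 other pericentral genes lay above that mean, with a median of 0.40, while Rspo3 lay 3.00 above it, Axin2 1.86, Dkk3 1.42 and Kit 0.00. All 12 LSEC identity genes lay under it there, with a median of -0.58, and all 10 hepatocyte markers above it, with a median of 3.81.

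In young 2.4, Rspo3 was 2.14 above the other libraries of experiment 2 on the log2 scale and Axin2 0.79 above, and Dkk3 was 1.28 below (log2 difference -1.28). There 8 of 9 other pericentral genes and 11 of 13 large-vessel genes were above the others, with medians of 0.41 and 0.83. All 10 hepatocyte markers were below, with a median of -1.46. With a term for hepatocyte markers the log2 fold change of Rspo3 over both experiments was -0.25, and with one for periportal LSEC markers it was -0.10.

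**Figure D4:**
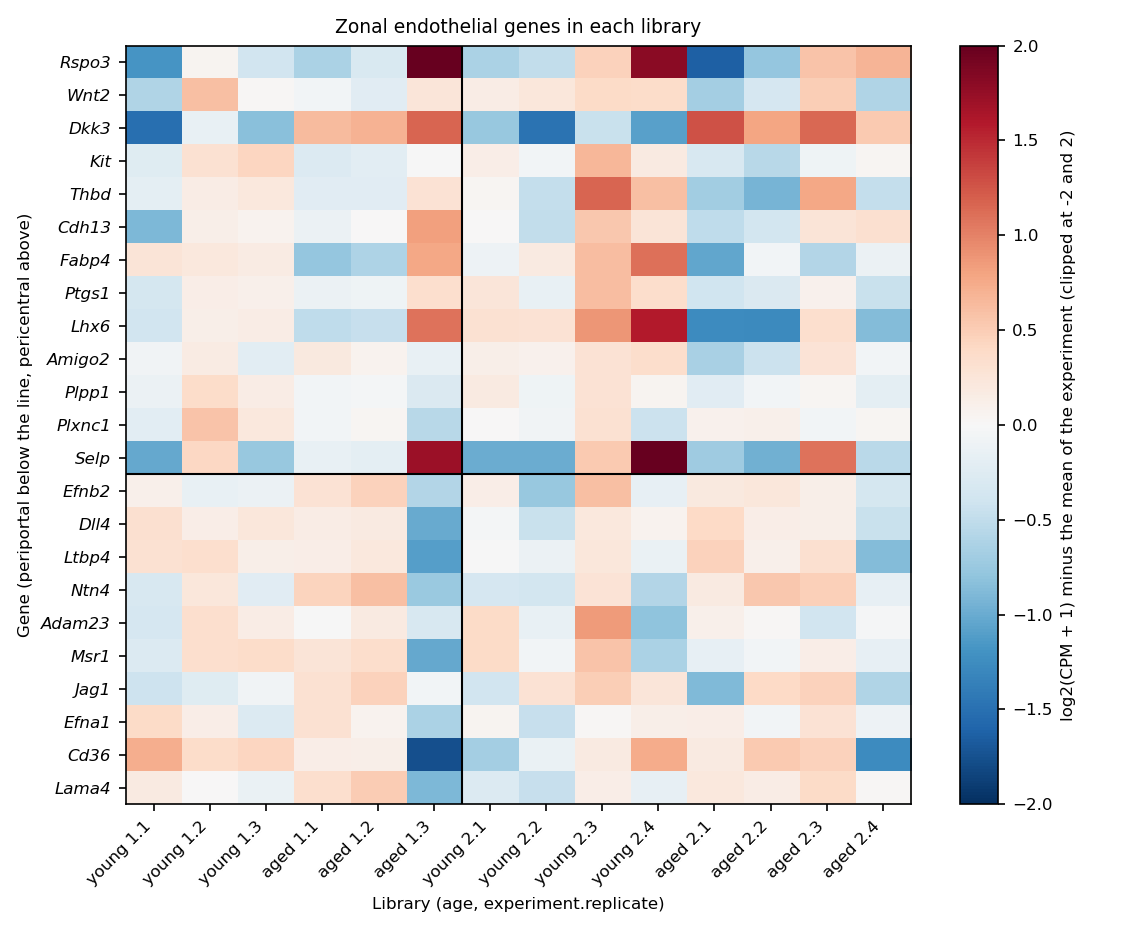
Deviation of each pericentral (above the line) and periportal (below the line) LSEC gene from the mean of its experiment (colour, log2(CPM + 1), shown between -2 and 2) in each library (x axis, young before aged within each experiment). Dkk3 is above 0 in all 7 aged libraries, and aged 1.3 shows high Rspo3 with periportal genes below 0.

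Of the 10 pairs among Dkk3, Wnt2, Rspo3, Kit and Axin2, 2 had a Pearson correlation over the 14 libraries that passed adjustment. The permutations shuffled all 14 libraries, without regard to experiment or age, so that shifts between experiments or ages can enter these p-values. Rspo3 and Axin2 gave r = 0.773 (permutation p = 0.00163, adjusted p = 0.0163) and rho = 0.710 (permutation p = 0.00588, adjusted p = 0.0588). Without aged 1.3 and aged 2.1, the libraries farthest from the median of Rspo3, r was 0.605, and it was 0.859 in experiment 1 and 0.730 in experiment 2. Wnt2 and Kit gave r = 0.673 (permutation p = 0.00811, adjusted p = 0.0406) and rho = 0.560 (permutation p = 0.0396, adjusted p = 0.132), with r = 0.673 without young 1.1 and aged 2.3, 0.655 in experiment 1 and 0.570 in experiment 2. Both pairs thus passed adjustment by r and missed it by rho.

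Dkk3 followed none of the others by these tests. With Kit it gave r = -0.519 (permutation p = 0.0567, adjusted p = 0.189; rho = -0.591, permutation p = 0.0284, adjusted p = 0.132), with Wnt2 r = -0.309 (permutation p = 0.278, adjusted p = 0.442) and with Rspo3 r = 0.161 (permutation p = 0.589, adjusted p = 0.589). The r of Dkk3 and Kit was -0.511 without young 2.2 and young 2.4, -0.231 in experiment 1 and -0.531 in experiment 2. That of Dkk3 and Wnt2 was 0.424 in experiment 1 and -0.546 in experiment 2, and that of Dkk3 and Rspo3 was 0.672 and -0.333. With Axin2, Dkk3 gave r = 0.292 (permutation p = 0.312, adjusted p = 0.442), with 0.811 in experiment 1 and -0.154 in experiment 2.

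**Figure D5:**
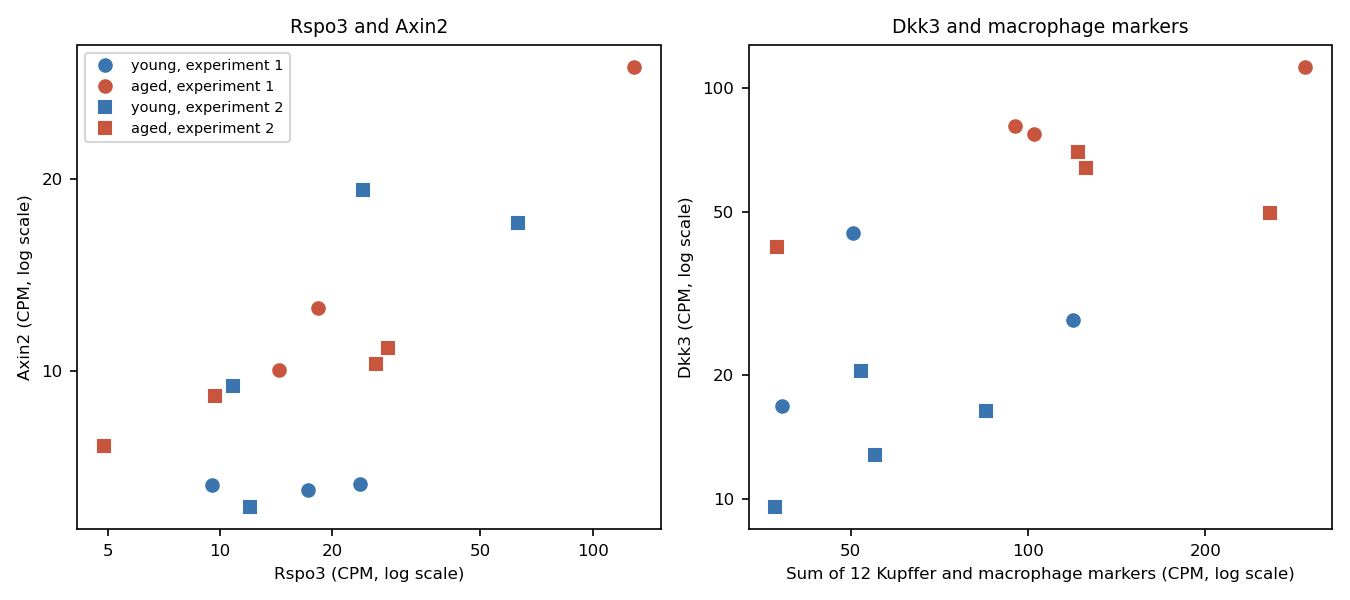
Left, Axin2 against Rspo3 (CPM, both axes on a log scale); right, Dkk3 (CPM, log scale) against the sum of 12 Kupffer and macrophage markers (CPM, log scale), with 1 point per library. Aged 1.3 is at 129 CPM of Rspo3 and 30.0 CPM of Axin2. Among the aged libraries, aged 2.4 has the lowest Dkk3 (41.0 CPM) and marker sum (37.6 CPM), and aged 1.3 the highest (112 and 296 CPM).

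The targets most like each gene were ranked by Pearson's r over the 14 libraries after the mean of each experiment was removed, among 11751 targets with a mean of at least 5 CPM. The points share library depth, cell composition and, where age moves both genes, age itself, and the values are descriptions. Nearest to Dkk3 were Cyp4v3, a fatty acid hydroxylase of the cytochrome P450 family (r = 0.981; 22.2 CPM in the aged and 9.61 CPM in the young libraries) and Apba1, an adaptor protein best known from neurons (0.947). Nearest to Rspo3 were Pcdh1 (0.856), the endothelial adhesion gene Selp (0.852) and Cdh13 (0.846), both of the last on the pericentral list. Axin2 was number 13 of 11750 in likeness to Rspo3 (r = 0.793).

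Nearest to Wnt2 were Ptgs1, which encodes cyclooxygenase 1 and is on the pericentral list (0.814), the mitochondrial complex I subunit Ndufv2 (0.813) and Tmem37 (0.801). Nearest to Kit were the interferon-induced gene Ifit1 (0.928; 39.0 CPM in the aged and 64.2 CPM in the young libraries), the peroxisomal membrane gene Pxmp4 (0.876) and Rcn1, a calcium-binding protein of the secretory pathway (0.876). Wnt9b had too few reads for such a ranking.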

How the data were processed

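RNA of sorted LSECs was read with an amplicon-based mouse transcriptome panel. The authors deposited 1 file per library with raw read counts per target, unnormalised; HTSeq 0.6.0 and DESeq2 1.18.1 are named per the submitters' processing notes, and the aligner, genome build and strand setting were not given in the sources used here. The 5 bookkeeping entries (1.24% to 3.04% of the reads on genes and these entries together) were left out. RefSeq identifiers were matched to symbols for 22562 of 23930 targets; 1368 were not matched and were kept by identifier. Libraries were grouped by the age in their labels.

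Counts were filtered by edgeR's filterByExpr by age, which left 14168 targets, scaled by TMM and fitted with edgeR 4.0.16 (R 4.3.3, quasi-likelihood) with terms for experiment and age; within-experiment changes and their difference came from a model of 4 group means. Standard errors are the absolute log2 fold change over the square root of F. Adjusted p-values are Benjamini-Hochberg over all targets, called at 0.05. Exact permutation used log2 CPM with a prior count of 2. Permutation p-values of correlations came from 100000 random shuffles of all 14 libraries, without regard to experiment or age. Alternatives used DESeq2 1.42.0, limma 3.58.1, other filters, scalings and terms. Depth limits low targets, such as Wnt9b, to a floor of 3 reads, which covers counting error only. On simulated counts of 14006 targets, for the comparison over both experiments, 4, 20, 28 and 42 of 50 targets changed 1.5-, 2-, 4- and 8-fold were recovered, with 5 false calls among 13811 unchanged ones.

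The genes and lists were chosen with earlier results of these data known. Named beside the 10 genes are up to 3 tested genes with the smallest p from each pathway list and the nearest patterns, 1 of which is not reported here; library markers, Dickkopf, R-spondin and pericentral genes were named after their values were seen.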

Additional observations from a re-analysis of the deposited data

Results flagged for a closer look

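Of 60 groups of 7 libraries examined, 12 had 1 library far from the others by Dixon's test at the 95% level. Chance alone flags about 1 in 20 groups if the 7 values come from 1 normal distribution. The levels were untransformed CPM pooled over both experiments, so that this rate may not hold here. Each is a single library's level in CPM, set against the other libraries of its age. Among the 10 genes these were Rspo3 in aged 1.3 (129 CPM) and in young 2.4 (63.1 CPM), Axin2 in aged 1.3 (30.0 CPM), Wnt9b in aged 1.3 (0.566 CPM, from 7 reads), Wnt2 in aged 2.3 (142 CPM, high) and Lrp5 in aged 2.4 (266 CPM, low). Among the other pathway genes these were Tcf7 in aged 1.3 (46.7 CPM), Fzd10 in aged 2.4 (24.1 CPM), Bambi in aged 2.4 (11.9 CPM, low), Ptk7 in young 2.4 (13.6 CPM), and Reck in aged 2.3 (3.82 CPM) and in young 2.4 (8.47 CPM). Aged 1.3, young 2.4 and aged 2.4 account for 10 of the 12, while no Dkk3 or Kit level was far from its group by this test.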

How the results depend on the processing

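Dkk3 kept its direction under all 30 alternatives tried, at log2 fold changes of 1.60 to 1.96, and stayed called in 27 of them. The number of these genes called over both experiments was 1, and 0 with no experiment term, with the Kupffer and B cell marker term and without aged 1.3 and young 2.4 together. The 23 targets called over both experiments became 146 with DESeq2, 46 without TMM scaling, 12 without the experiment term, 60 with a receptor read term, 4 with the Kupffer and B cell marker term, 4 with aged 1.1 and aged 1.2 summed, 36 without young 2.2 and aged 2.4 together, 37 with bias-adjusted deviances, 7 without aged 1.3 and young 2.4 together, and 4 to 29 when 1 library was left out, with 4 to 11 without any 1 of aged 1.1, 1.2, 2.1, 2.2 and 2.3 and young 1.1, 1.3, 2.3 and 2.4. The 0 of experiment 1 became 86 with DESeq2, 1 without TMM scaling or with limma-voom, and 2 with the receptor read term, without young 2.2 and aged 2.4, or with bias-adjusted deviances. The 1 of experiment 2 became 53, 5 and 3 with DESeq2, without TMM scaling and with limma-voom, 21 with the receptor read term, 3 without young 2.2 and aged 2.4, 7 with bias-adjusted deviances, and 1 to 3 when 1 library was left out. The exact permutation test was past 0.05 for 2 genes, and for 2 to 4 when 1 library was left out, the 4 being without young 1.1. The causes were not tested.

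Same-numbered libraries paired only in part. Over 7 pairs the correlation of their deviations ran from -0.385 to 0.776, the highest being that of number 2.3. Of these correlations 4 were over 0.1, and 3 aged libraries matched their own number best. With the replicate block, 5 targets were called over both experiments and 0 in experiment 2, Dkk3 stayed called, and Wnt4, Fzd10 and Dkkl1 changed sign (-0.0040, -0.32 and -0.26).

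The other sign changes were of uncalled genes (log2 fold changes; the causes were not tested). Over both experiments Rspo3 was -0.11 with the Kupffer and B cell marker term, -0.25 with a hepatocyte term and -0.10 with a periportal term; with the first of these Znrf3 was -0.30 and Tcf7 -2.66. Lgr4 was 0.023 without TMM scaling, 0.030 with aged 1.1 and 1.2 summed and 0.085 with a large vessel term. With limma-voom Fzd10 was -0.026 and Dkkl1 -0.076. Without young 2.2 and aged 2.4, Fzd6 was -0.034 (-0.35 in experiment 2), Wnt4 -0.078, Fzd10 -0.57, Dkkl1 -0.22 and Celsr2 -0.17. Without aged 1.3 and young 2.4, Wnt4 was -0.0030, Tcf7 -0.24, Rspo3 -0.041 in experiment 1 and 0.14 in experiment 2, its difference between experiments 0.18, and its mean difference in log2 CPM -0.037. In experiment 1 Wnt2 was 0.068 without TMM scaling and 0.012 with the receptor read term, and Lrp5 -0.14 with the Kupffer and B cell, -0.0011 with the large vessel and -0.017 with the hepatocyte term, and -0.0015 with aged 1.1 and 1.2 summed. In experiment 2 Lrp6 was -0.017 with DESeq2 and -0.019 without a filter, -0.051 with the receptor read, -0.0049 with the large vessel and -0.039 with the periportal term, and Rspo3 0.20 with the large vessel term.

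When 1 library was left out, values over both experiments ran from -0.48 to 0.50 for Wnt4, -0.99 to 0.92 for Fzd10, -0.76 to 0.76 for Dkkl1, -0.62 to 1.01 for Celsr2, -0.26 to 0.079 for Lgr4 and -0.43 to 0.85 for Rspo3. They ran from -0.082 to 0.12 for Lrp5, -0.35 to 0.26 for Wnt2 and -0.041 to 2.13 for Rspo3 in experiment 1, and from -0.20 to 0.24 for Fzd6, -0.063 to 0.13 for Lrp6 and -1.01 to 0.14 for Rspo3 in experiment 2. The difference between experiments ran from -0.25 to 0.054 for Kit and -0.11 to 0.59 for Dkk3, and the log2 CPM difference of Rspo3 from -0.37 to 0.43. Large vessel, hepatocyte and periportal terms, bias-adjusted deviances and the joint removal of aged 1.3 and young 2.4 were added after seeing the data.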
